A study of Mus musculus with 10 samples.

Results

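The 10 genes described here encode the machinery that decides whether a cell leaves the G1 phase of the division cycle. They are the D-type cyclins Ccnd1, Ccnd2 and Ccnd3, the cyclin-dependent kinases (CDKs) Cdk2, Cdk4 and Cdk6, the CDK inhibitors Cdkn1b, Cdkn1c and Cdkn2c, and the retinoblastoma gene Rb1. They were picked by symbol, as a named set, from 38887 Ensembl gene identifiers in the deposited table, and all 10 were found there. The set was chosen with earlier results of these data known. Transcripts were measured by RNA sequencing in hematopoietic progenitor cells, the dividing precursors of blood cells, isolated from the marrow of tumour-bearing mice, the tumour being a transplantable one, Lewis lung carcinoma (LLC). For 2 weeks the mice received vehicle (5 libraries) or 60 mg/kg of BMS-595, which inhibits the protein kinase CK2 (5 libraries, called CK2i), so that both groups bore the tumour. The mouse strain, age and sex, the marker used to isolate the progenitors, and whether each library came from 1 mouse do not stand in the sources used here. The p-values therefore set group differences against the spread between these libraries. That spread may in part be technical and may not stand for the spread between mice.

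D-type cyclins are made in response to growth signals and bind Cdk4 or Cdk6. The resulting kinases phosphorylate the Rb protein, which otherwise holds E2F transcription factors in check, and Cdk2 with cyclin E completes that step. The product of Cdkn2c, p18, binds Cdk4 and Cdk6 alone, whereas p27 and p57, the products of Cdkn1b and Cdkn1c, act on cyclin-CDK complexes. In bone marrow, Cdk6 and Ccnd3 are known for their part in progenitor division, and p27, p57 and p18 for restraining it. CK2 can phosphorylate several cell cycle proteins, and transcript levels do not measure such events.

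Total estimated counts were 37569160 to 43636152 per vehicle library and 34127674 to 40811539 per CK2i library. By edgeR's quasi-likelihood test with Benjamini-Hochberg adjustment, 1892 of 14346 genes tested passed an adjusted p of 0.05, which is 13.2%, and the count ran from 446 to 3198 over the 10 fits that left out 1 library each. CK2i libraries 2 and 5 had the highest scores on principal component 1 (43.3 and 43.7, against -4.10 to 12.5 for the other CK2i libraries and -29.6 to -9.37 for vehicle), and 175 genes passed when the treated group was reduced to CK2i 1, 3 and 4. Levels per length are given in FPKM (fragments scaled for transcript length and library depth). Of the stem and progenitor markers, Kit stood at 56.9 and Cd34 at 76.5 FPKM on average in vehicle, but Mecom at 1.78 and Procr at 0.576. Markers of other lists were high too, with Mpo (primary granule) at 1308, Pf4 (platelet) at 1425 and Car1 (erythroid) at 1197 FPKM.

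Cell type markers moved between the groups, and their part in the results below was not tested. All 8 primary granule genes in the table passed higher in CK2i, with summed FPKM of 1961 to 4016 in vehicle and 3708 to 6108 in CK2i, highest in CK2i 2 and 5. Megakaryocyte and platelet genes passed lower in 5 of 12 and higher in none, with sums of 2412 to 3951 in vehicle and 1291 to 2892 in CK2i. Of the other lists, those of late neutrophils (3 of 11; sums of 44.4 to 135 and 72.8 to 322) and monocytes (5 of 11; 155 to 229.6 and 215 to 315) had calls that were all higher. Those of stem and progenitor genes (1 of 12; 359 to 438 and 384 to 417), B lymphoid and plasma cells (1 of 7; 505 to 662 and 312 to 472), T and NK cells (1 of 6; 42.9 to 81.2 and 58.9 to 109) and stromal and endothelial cells (2 of 10; 146 to 171 and 98.5 to 133) had calls that were all lower. Erythroid genes were called higher in 6 and lower in 3 of 13, with sums of 2385 to 3167 and 2221 to 2813. The 5 tested epithelial genes, taken as possible markers of tumour cells, gave no call (edgeR), summed to 6.70 to 11.4 FPKM in vehicle and 9.02 to 11.7 in CK2i, and Krt19 was at 0 in all libraries. In bulk RNA, fewer cells of a type and less RNA per cell cannot be told apart.

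None of the 10 genes passed the test over all genes, against 13.2% of all genes tested. Adjusted p-values ran from 0.0613 for Cdk2 to 0.659 for Cdk4 (edgeR). At an unadjusted p under 0.05 there were 6 of 10, with Cdk2, Cdk6, Ccnd3 and Cdkn2c at higher and Cdkn1b and Cdkn1c at lower values in CK2i, where 34.6% of all genes met that limit. DESeq2, a second count test, called 2 of the 10 (Cdk2 and Cdk6), where it called 3176 of 14352 genes tested. On log2(FPKM + 1), limma called 0 of the 10 and 1197 of 14346 genes. All 10 genes passed the filter on low counts. Their median log2 difference was 0.10, beside -0.00062 over all genes tested, and the median size of the difference was 0.13, beside 0.14 over all genes. The groups did not overlap for 1 of the 10, Cdk6, where 10.9% of all genes had groups that did not overlap (5.18% with CK2i above and 5.76% with CK2i below).

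**Figure D1:**
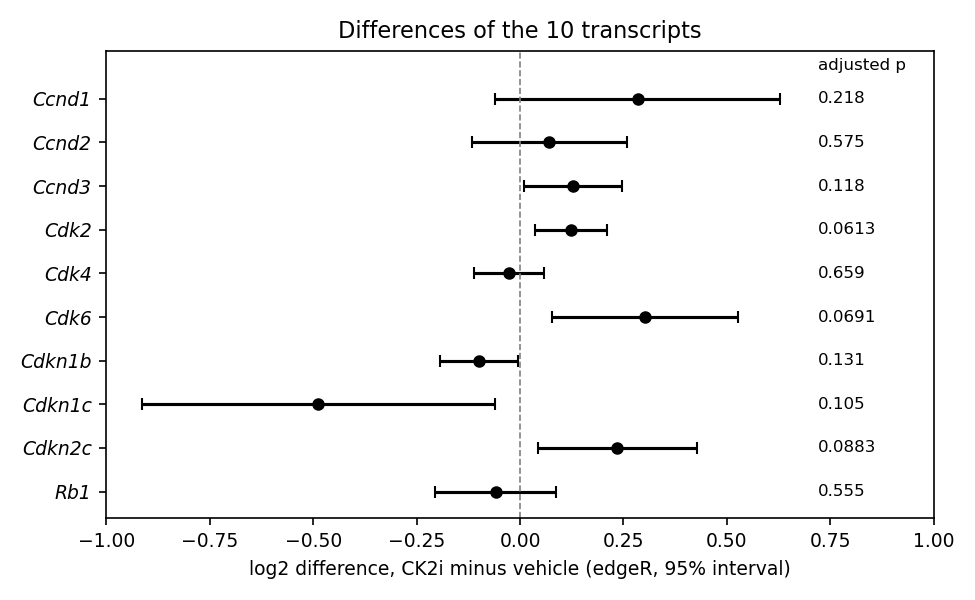
Log2 difference in transcript level, CK2i minus vehicle, for each of the 10 genes, with the 95% interval from edgeR's quasi-likelihood fit and the p adjusted over all 14346 genes at the right. Intervals of 6 genes exclude 0, and none of the adjusted p-values is below 0.05.

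Per length, the kinase Cdk4 was by far the most abundant of the 10 transcripts, at 448 ± 19.4 FPKM in vehicle (SD, n = 5), above 98.2% of the genes tested. Ccnd3 followed at 82.1 ± 5.50 FPKM and Cdk6 at 72.3 ± 3.55 FPKM. Ccnd3 exceeded Cdk6 in 5 of 5 vehicle but in 2 of 5 CK2i libraries. Cdk2 (35.3 ± 1.62 FPKM), Ccnd2 (24.9 ± 1.81 FPKM) and Rb1 (21.3 ± 2.17 FPKM) came next, and the vehicle ranges of Ccnd2 and Rb1 overlapped. The inhibitors Cdkn2c (15.7 ± 1.67 FPKM) and Cdkn1b (15.2 ± 0.659 FPKM) overlapped in vehicle, with Cdkn2c the higher in 3 of 5 vehicle and 5 of 5 CK2i libraries. Ccnd1 stood at 7.14 ± 1.57 FPKM and Cdkn1c, at 0.308 ± 0.0259 FPKM, was near the bottom of the genes tested. All other neighbours in this order kept it in all 10 libraries.

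**Figure D2:**
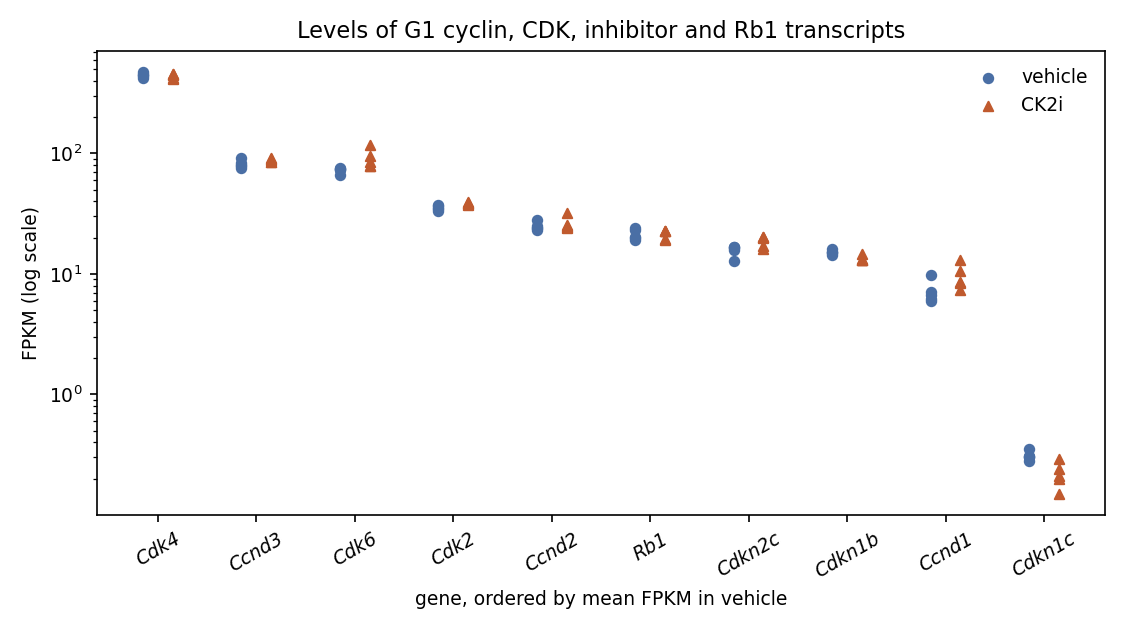
FPKM on a log scale for each gene in each library, ordered by the vehicle mean, with circles for vehicle and triangles for CK2i (5 libraries each). Cdk4 lies above all others in every library and Cdkn1c below all others, between 0.15 and 0.35 FPKM.

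Of the D cyclins, Ccnd3 (ENSMUSG00000034165; GRCm38 chromosome 17, 47505051 to 47599691) dominated. It made up 71.9% ± 2.23 of the summed D cyclin FPKM in vehicle and 71.1% ± 1.90 in CK2i, with Ccnd2 at 21.9% ± 1.90 and 21.2% ± 2.17 and Ccnd1 at 6.25% ± 1.28 and 7.69% ± 1.66 (SD, n = 5 per group). In CPM, counts scaled to library size, vehicle libraries 1 to 5 held 140, 136, 147, 131 and 155 of Ccnd3, and CK2i libraries 1 to 5 held 144, 161, 159, 149 and 162. Of these, 3 of the 5 CK2i libraries lay above every vehicle library and the others fell among them. The log2 difference was 0.13 ± 0.05 (SE, edgeR adjusted p = 0.118).

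Ccnd2 (ENSMUSG00000000184; chromosome 6, 127125162 to 127152193), a cyclin induced by cytokine signals, was at 156, 138, 134, 134 and 128 CPM in vehicle and at 138, 179, 136, 131 and 142 CPM in CK2i. Only CK2i 2 exceeded the vehicle range. The log2 difference was 0.07, with a 95% interval of -0.12 to 0.26 (edgeR adjusted p = 0.575), and without CK2i 2 it was -0.01. Ccnd1 (ENSMUSG00000070348; chromosome 7, 144929931 to 144939925), the cyclin best known from epithelial tumours, was at 25.4, 20.2, 32.6, 23.0 and 21.5 CPM in vehicle and at 33.4, 29.3, 37.96, 22.4 and 26.4 CPM in CK2i. It had the widest relative spread of the 3 cyclins, with a coefficient of variation of 19.9% in vehicle and 20.2% in CK2i, and the groups overlapped. Its log2 difference of 0.28 had an interval of -0.06 to 0.63 (edgeR adjusted p = 0.218). It ranged from 0.18 without CK2i 3 to 0.41 without vehicle 3, the highest library of each group, and did not pass in any of the 10 fits without 1 library.

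The balance among the cyclins was compared as log2 ratios of CPM, with exact two-sided permutation tests over every assignment of the 10 libraries to groups of 5, adjusted over 4 ratios. The ratio of Ccnd2 to Ccnd3 was -0.04 ± 0.17 in vehicle and -0.10 ± 0.16 in CK2i (SD, n = 5 per group; difference -0.06, exact permutation p = 0.508, adjusted p = 0.508). The ratio of Ccnd1 to Ccnd3 was -2.55 ± 0.26 and -2.40 ± 0.30 (difference 0.15, exact permutation p = 0.397, adjusted p = 0.508). Neither difference exceeded the spread between libraries.

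Among the kinases, Cdk6 (ENSMUSG00000040274; chromosome 5, 3341485 to 3531008), a partner of D cyclins that also acts in myeloid transcription, was the only one of the 10 genes whose groups did not overlap. Vehicle libraries 1 to 5 held 234, 233, 234, 240.3 and 209.8 CPM, and CK2i libraries 1 to 5 held 267, 369, 246, 245 and 293 CPM. Each of the 5 CK2i libraries exceeded every vehicle library, and the highest were CK2i 2 and CK2i 5, the libraries that stood apart and had the highest primary granule sums. The fold was 1.23 with a 95% interval of 1.05 to 1.44 (log2 0.30 ± 0.10 SE, edgeR adjusted p = 0.0691). Leaving out 1 library at a time gave adjusted p-values from 0.0378 (without CK2i 3) to 0.144. The log2 difference was 0.19 without CK2i 2, and against a treated group of CK2i 1, 3 and 4 only it was 0.13 (adjusted p = 0.210).

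Cdk4 (ENSMUSG00000006728; chromosome 10, 127063534 to 127067920), which shares the D cyclins with Cdk6, was at 374, 392, 354, 375 and 357 CPM in vehicle and at 376, 349.7, 364, 375 and 354 CPM in CK2i. The groups overlapped, and the log2 difference of -0.03 had an interval of -0.11 to 0.06 (edgeR adjusted p = 0.659). The log2 ratio of Cdk6 to Cdk4 was tested directly. In vehicle libraries 1 to 5 it was -0.67, -0.75, -0.60, -0.64 and -0.77, and in CK2i libraries -0.49, 0.08, -0.56, -0.62 and -0.27. The ratio was above all vehicle libraries in 4 of 5 CK2i libraries, and only in CK2i 2 was the count of Cdk6 above that of Cdk4. The difference of 0.31 passed (exact permutation p = 0.0159, adjusted p = 0.0476 over 4 ratios). The Benjamini-Hochberg step carries this adjusted p over from the ratio of Cdkn2c to Cdkn1b, described below. With all 10 libraries each of these 2 calls therefore rests on the other. The ratio of Cdk6 to Cdk4 no longer passed when vehicle 1, 2, 3, 4 or 5, CK2i 2 or CK2i 5 was left out (adjusted p = 0.0635 to 0.127). Without CK2i 2 the difference was 0.20, and with CK2i 1, 3 and 4 only it was 0.13 (exact permutation, adjusted p = 0.214). Per length, Cdk6 made up 13.0% ± 0.386 of the summed FPKM of the 3 kinases in vehicle and 16.0% ± 2.82 in CK2i (SD, n = 5 per group).

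**Figure D3:**
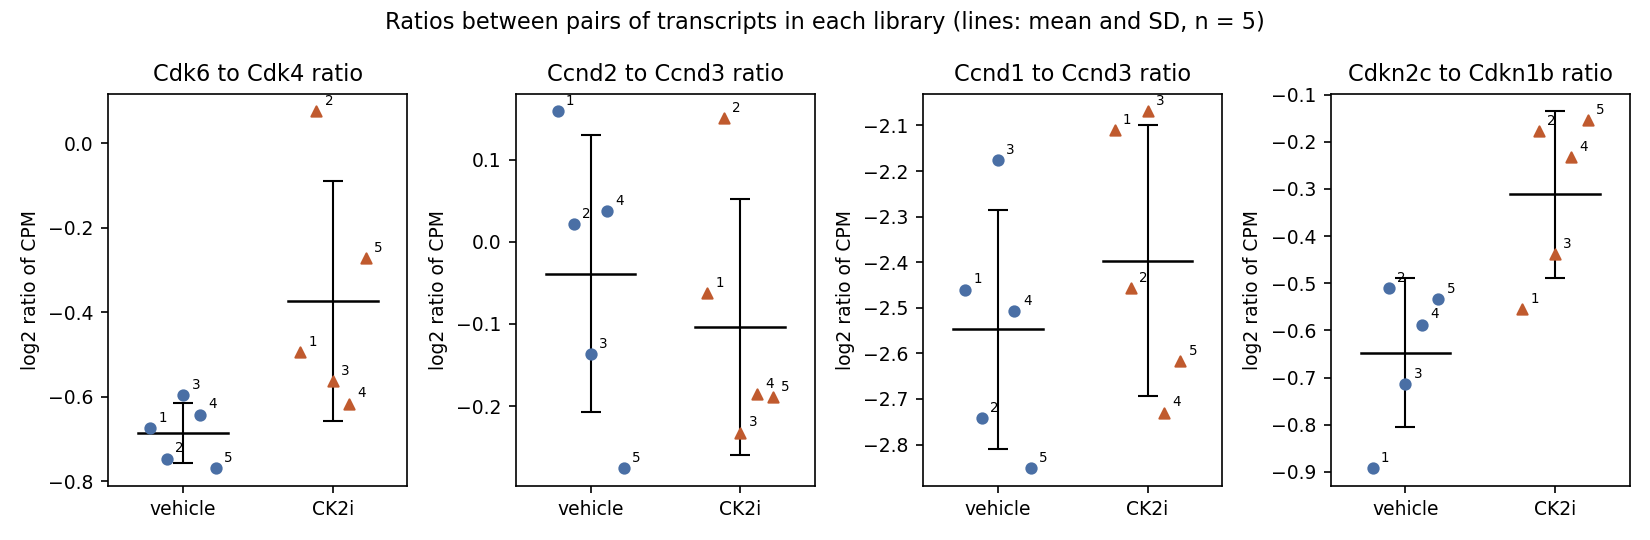
Log2 ratio of CPM for 4 pairs of genes in each library, numbered by replicate, with group means and SD (n = 5). For the ratio of Cdk6 to Cdk4 and that of Cdkn2c to Cdkn1b, 4 of 5 CK2i libraries lie above all vehicle libraries, and the cyclin ratios overlap.

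Cdk2 (ENSMUSG00000025358; chromosome 10, 128697939 to 128705031), the partner of cyclins E and A at the start of DNA replication, varied little within groups. Vehicle libraries held 72.7, 79.9, 80.4, 76.2 and 74.3 CPM and CK2i libraries 79.5, 83.5, 83.9, 83.9 and 86.8 CPM. CK2i 1 lay within the vehicle range and the other 4 above it. The fold of 1.09 (95% interval 1.02 to 1.16) was small and gave the lowest adjusted p of the 10 genes (0.0613, edgeR), which ran from 0.0520 to 0.141 over the 10 fits that left out 1 library.

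Promoter sequences from RefSeq (GRCm38.p6, 250 bases before to 50 after the start site) were given for 6 of the 10 genes, with 8 promoters in all. They were searched on both strands for the E2F-like words TTTCCCGC, TTTCGCGC, TTTGCCGC and TTTGGCGC, since E2F factors are what the Rb protein holds back. Such a word stood in 744 of 32851 promoters (2.26%) and in 1 of the 8 promoters here, that of Cdk2, where it is read on the opposite strand and begins at -140 from the start site. Among 13 genes of the wider pathway with a promoter in the table, chosen because they passed the test, E2f2 and Uhrf1 held one. Each of them held it in 1 promoter and not in another. That count is of genes, some with more than 1 promoter, and so is not on the scale of the 2.26%. The 30 bases around each word are shown so that the 3 can be compared, with the word in capitals. They lie at chr10:128705173-128705202 (minus strand), chr4:136172294-136172323 (plus strand) and chr17:56304117-56304146 (plus strand).
Cdk2: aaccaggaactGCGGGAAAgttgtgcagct
E2f2: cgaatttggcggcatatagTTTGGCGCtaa
Uhrf1: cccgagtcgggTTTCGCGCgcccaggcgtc
A match describes these letters and is not evidence that a factor binds there.

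Of the inhibitors, Cdkn2c (ENSMUSG00000028551; chromosome 4, 109660876 to 109667189) encodes p18, which keeps Cdk4 and Cdk6 from their cyclins. It was at 24.5, 32.9, 31.05, 31.8 and 31.6 CPM in vehicle and at 31.97, 38.4, 32.4, 37.2 and 38.9 CPM in CK2i. Vehicle 1 was low, and CK2i 2, 4 and 5 lay above all vehicle libraries. The log2 difference was 0.24 ± 0.09 (SE, edgeR adjusted p = 0.0883).

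Cdkn1b (ENSMUSG00000003031; chromosome 6, 134920401 to 134925513) encodes p27, an inhibitor of cyclin-CDK complexes that accumulates in resting cells. It was at 45.6, 46.9, 50.9, 47.8 and 45.8 CPM in vehicle and at 47.0, 43.5, 43.9, 43.7 and 43.3 CPM in CK2i. CK2i 1 was within the vehicle range, and the other 4 lay below it. The fold was 0.934 with an interval of 0.875 to 0.997 (edgeR adjusted p = 0.131).

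The log2 ratio of Cdkn2c to Cdkn1b was -0.89, -0.51, -0.71, -0.59 and -0.53 in vehicle and -0.56, -0.18, -0.44, -0.23 and -0.15 in CK2i. It was above all vehicle libraries in 4 of 5 CK2i libraries, and the difference of 0.34 passed (exact permutation p = 0.0238, adjusted p = 0.0476 over 4 ratios). This adjusted p is shared with the ratio of Cdk6 to Cdk4, and each call rests on the other. The call of Cdkn2c to Cdkn1b was lost when vehicle 1, 2, 3, 4 or 5, CK2i 2, CK2i 4 or CK2i 5 was left out (adjusted p = 0.0635 to 0.127), while the difference stayed between 0.27 and 0.40. With CK2i 1, 3 and 4 only it was 0.24 (exact permutation, adjusted p = 0.214). Per length, Cdkn2c made up 50.2% ± 2.39 of the summed FPKM of the 3 inhibitors in vehicle and 57.7% ± 3.55 in CK2i, and Cdkn1b 48.8% ± 2.33 and 41.6% ± 3.38 (SD, n = 5 per group).

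Cdkn1c (ENSMUSG00000037664; chromosome 7, 143458339 to 143461050) encodes p57, an imprinted gene's product known for keeping hematopoietic stem cells quiet. It was barely detected, with deposited counts of 23, 18, 21, 25 and 20 in vehicle and 15, 15, 20, 13 and 9 in CK2i. In CPM, CK2i 3 lay within the vehicle range and the other 4 CK2i libraries below it. The fold of 0.713 had a wide interval of 0.530 to 0.959 (edgeR adjusted p = 0.105), and without CK2i 3 the adjusted p was 0.0489.

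Rb1 (ENSMUSG00000022105; chromosome 14, 73183673 to 73325822), whose product the D cyclin kinases phosphorylate, was at 82.1, 78.3, 93.8, 83.5 and 97.1 CPM in vehicle and at 79.6, 85.6, 76.9, 89.8 and 85.7 CPM in CK2i. The groups overlapped throughout. The log2 difference was -0.06 with an interval of -0.21 to 0.09 (edgeR adjusted p = 0.555).

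**Figure D4:**
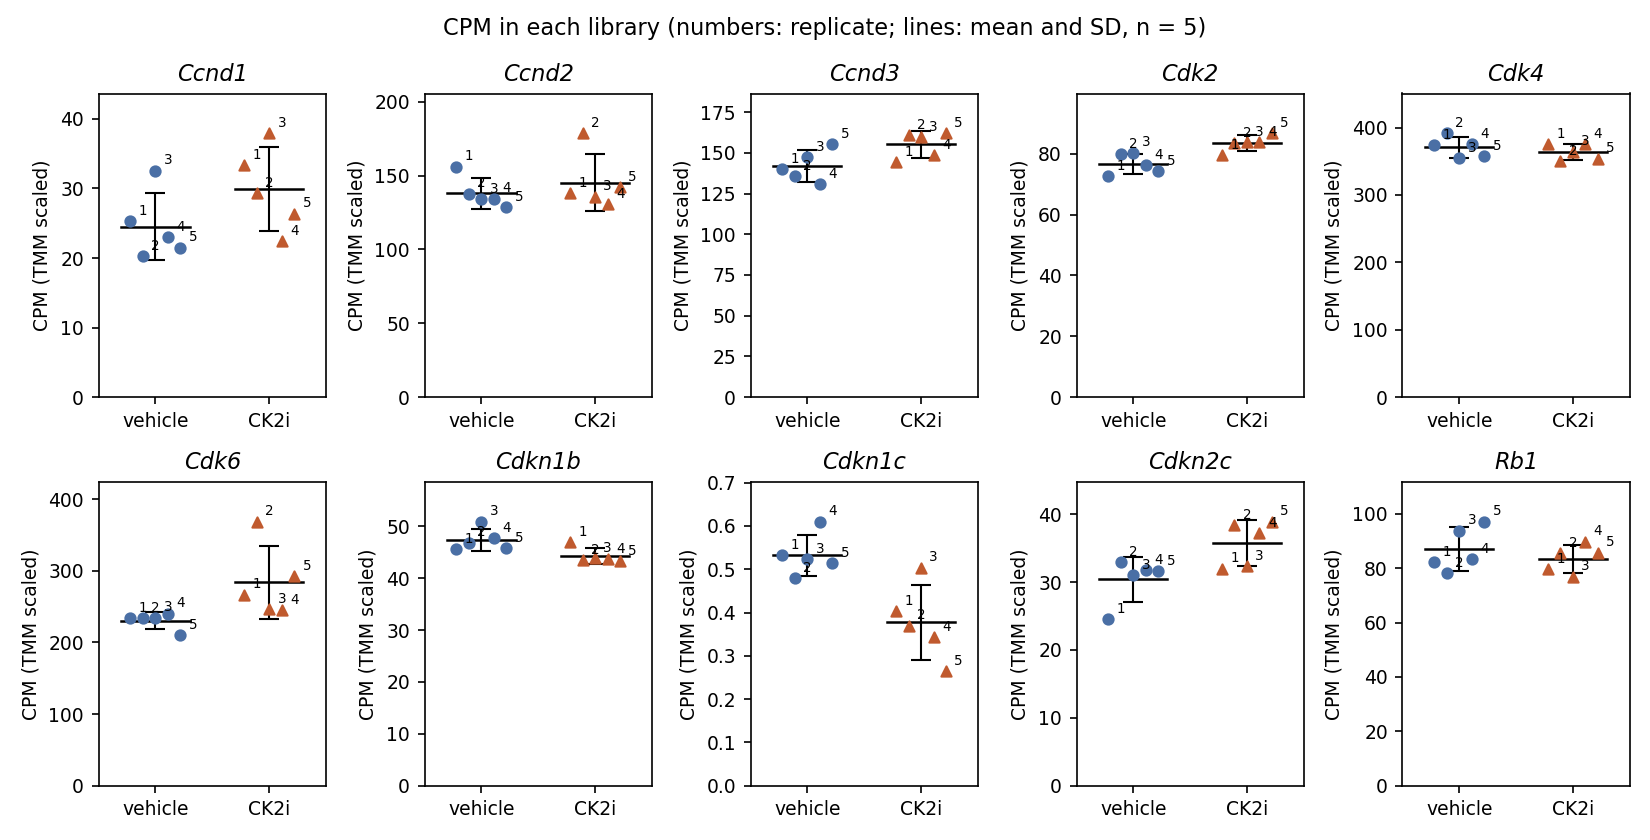
CPM of each gene in each library, numbered by replicate, with the mean and SD of each group (n = 5) and axes that start at 0. Only for Cdk6 do all 5 CK2i libraries lie above all vehicle libraries, and CK2i 2 is the highest library for Cdk6 and Ccnd2.

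Some reads of these genes could belong to neighbours. In the GENCODE M21 annotation, exons of Ccnd1, Ccnd2, Ccnd3, Cdk2, Cdk4, Cdk6, Cdkn1c and Rb1 overlap exons of a gene on the opposite strand, by 34 bases (Cdk2 with Pmel) to 1100 bases (Ccnd1 with LTO1). The library kit keeps strand, but the strand setting of the authors' counting is not in those sources. Where such a neighbour was in the table its level was lower, as for LTO1, at 13.6 ± 0.608 and 13.5 ± 1.10 CPM, and Tspan31 opposite Cdk4, at 48.9 ± 2.51 and 52.5 ± 2.77 CPM (SD, n = 5 per group).

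FPKM and counts did not give the same difference for every gene. Dividing each deposited count by its FPKM and the library total gives the effective length that the quantification assigned to the gene, which shifts when reads are shared differently among its transcripts. For Ccnd2 this length was 5.53 to 5.54 kb in all 10 libraries. For Cdkn1b it was 3.14, 3.07, 3.14, 3.13 and 3.05 kb in vehicle and 3.22, 3.33, 3.36, 3.32 and 3.30 kb in CK2i, so that the groups did not overlap, which held for 140 of 10508 genes (1.33%) and for 1 of the 9 members with enough counts. The log2 difference of Cdkn1b was accordingly -0.18 in mean FPKM and -0.10 in the count test. GENCODE M21 annotates 3 protein-coding transcripts of Cdkn1b, with lengths of 1.76, 2.39 and 4.55 kb, and the table does not split reads by transcript. For Ccnd1 the implied length was 3.44 ± 0.137 kb in vehicle and 3.15 ± 0.171 kb in CK2i (SD, n = 5 per group), a shift below that of all but 1.07% of those genes. Its log2 difference was 0.42 in mean FPKM and 0.28 in the count test. The groups overlapped for Ccnd1, since CK2i 2 (3.41 kb) exceeded vehicle 2 (3.29 kb) and vehicle 3 (3.30 kb). These lengths were examined after the values were seen and were not tested.

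**Figure D5:**
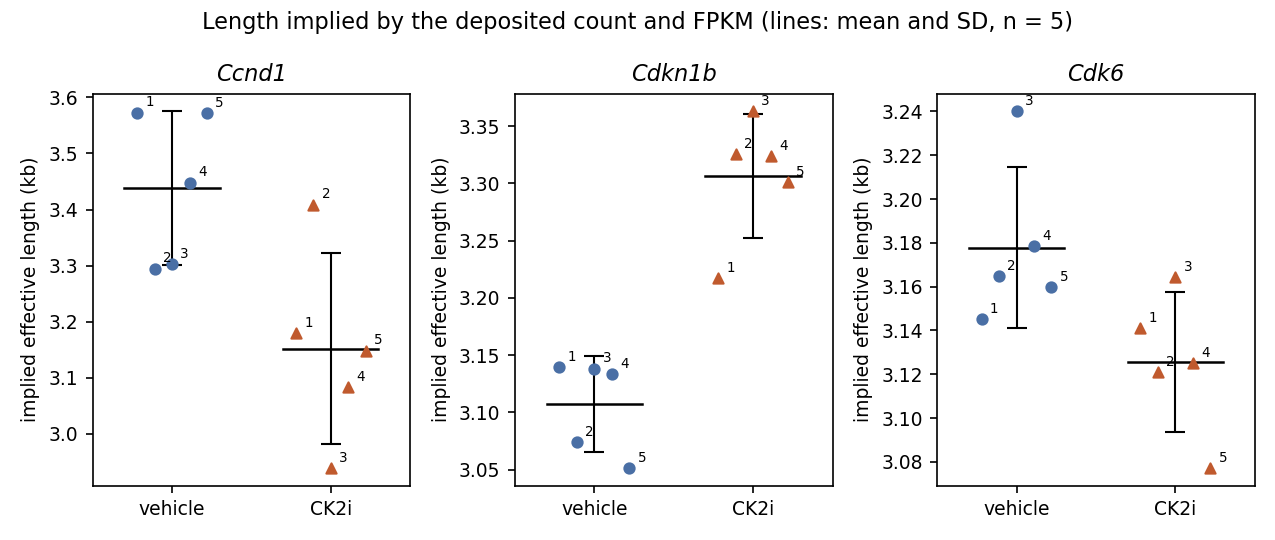
Effective length in kb implied by the deposited count and FPKM of Ccnd1, Cdkn1b and Cdk6 in each library, numbered by replicate, with means and SD (n = 5); the axes do not start at 0. For Cdkn1b each CK2i library (3.22 to 3.36 kb) lies above all vehicle libraries (3.05 to 3.14 kb).

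The other genes of the pathway were read against all genes tested, of which 6.43% passed higher and 6.76% lower in CK2i. Of 15 other G1 cyclins, CDKs and partners tested, 1 rose and 1 fell (median log2 difference -0.01, beside -0.00062 over all genes). Ccne2, a cyclin E that activates Cdk2, rose from 48.1 ± 1.85 to 56.4 ± 6.01 CPM (edgeR adjusted p = 0.0499). Cks2, a small subunit that binds CDKs, fell from 119 ± 5.78 to 105 ± 4.74 CPM (edgeR adjusted p = 0.0296). Its groups did not overlap, as held for 10.9% of all genes tested, but naming genes by a small p favours groups that stand apart. Ccne1, the other cyclin E, was at 76.9 and 83.7 CPM (edgeR adjusted p = 0.383).

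Of 10 tested genes for other CDK inhibitors and their turnover, 1 fell and none rose (median 0.03). It was Cdkn2d, which encodes p19 of the same INK4 family as p18, at 36.0 ± 3.82 and 28.3 ± 4.12 CPM (log2 -0.35, edgeR adjusted p = 0.0498), a direction opposite to the values of Cdkn2c. Cdkn1a, the p53-responsive inhibitor p21, was at 2.33 ± 0.438 and 3.01 ± 0.908 CPM (edgeR adjusted p = 0.244). The calls of Ccne2, Cdkn2d and Cks2 were kept in 2, 3 and 5 of the 10 fits that left out 1 library, with adjusted p-values of up to 0.118, 0.113 and 0.0705 in the rest. With CK2i 1, 3 and 4 only, none of these 3 calls was kept (edgeR adjusted p = 0.189, 0.266 and 0.150).

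Pocket proteins, E2F factors and partners passed higher in 2 of 19 and lower in none, with a median of 0.05. E2f2, an activating E2F abundant in blood precursors, rose from 35.6 ± 4.07 to 53.5 ± 7.09 CPM (log2 0.59 ± 0.10 SE, edgeR adjusted p = 0.0121). Mybl2, which encodes B-Myb and works with the DREAM subunits, rose from 91.6 ± 4.29 to 110 ± 6.33 CPM (log2 0.26 ± 0.05 SE, edgeR adjusted p = 0.0159). Both had groups that did not overlap, as held for 10.9% of all genes tested, but naming genes by a small p favours groups that stand apart. Both passed in all 10 fits without 1 library. With limma on log2(FPKM + 1), Mybl2 did not pass (limma adjusted p = 0.0534). When CK2i 2 and 5 were left out together, the edgeR adjusted p-values of E2f2 and Mybl2 were 0.0534 and 0.0660. The pocket proteins Rbl1 and Rbl2 differed by 0.10 and 0.04 on the log2 scale and did not pass (edgeR adjusted p = 0.227 and 0.626).

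Of 22 genes that act upstream of D cyclins and p27, 1 rose and 5 fell (median -0.06). Foxo3, a transcription factor known to activate Cdkn1b, fell by 0.20 on the log2 scale (edgeR adjusted p = 0.0185). Stat5a and Stat5b, which carry cytokine signals to Ccnd2 among other genes, fell by 0.23 (0.0178) and 0.16 (0.0258). Gfi1, a repressor, was the one that rose, by 0.91 (edgeR adjusted p = 0.0187). These 4 genes were named for having the smallest p of the list, which favours groups that stand apart. Their groups did not overlap, as held for 10.9% of all genes tested. Stat5a and Foxo3 passed in all 10 fits without 1 library, Gfi1 in 9 and Stat5b in 4. With CK2i 1, 3 and 4 only, all 4 calls were lost (edgeR adjusted p = 0.0502 for Stat5a, 0.0883 for Foxo3, 0.0912 for Gfi1 and 0.109 for Stat5b). The other calls downward were Mycn and Kit. Myc was at 190.2 and 167 CPM (edgeR adjusted p = 0.102).

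Downstream, E2F target genes of S phase passed higher in 2 of 28, with 24 of 28 log2 differences above 0. The median was 0.06, beside -0.00062 over all genes tested. Rrm2, a subunit of ribonucleotide reductase, rose from 196 ± 16.5 to 248 ± 28.7 CPM (edgeR adjusted p = 0.0296), and Uhrf1, a chromatin factor of replicating DNA, from 356 ± 13.3 to 386 ± 4.01 CPM (0.0487). Genes of G2 and mitosis passed higher in 4 and lower in 1 of 25, with 23 of 25 above 0 and a median of 0.09. The calls were Aurka, Ccnf, Kif20a and Mki67 upward, by 0.15, 0.19, 0.15 and 0.40, and Cenpa, the centromeric histone, downward, by 0.25 (edgeR adjusted p = 0.0104). Mki67 is named here after its value was seen. Without 1 library, Cenpa passed in all 10 fits and also with CK2i 1, 3 and 4 only (adjusted p = 0.0410), whereas Rrm2 passed in 5, Aurka and Kif20a in 2, and Ccnf and Uhrf1 in 1 of 10. In that smaller treated group the calls of Rrm2, Aurka, Kif20a, Ccnf and Uhrf1 were lost (edgeR adjusted p = 0.141 to 0.200). The summed FPKM of the S phase list ran from 2786 to 3064 in vehicle and from 2959 to 3319 in CK2i, and that of the G2 and mitosis list from 1647 to 1796 and from 1726 to 1963, so both overlapped. The counts of log2 differences above 0 in these 2 lists were not tested. Genes of a list measured in the same libraries are not separate observations.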

How the data were processed

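The submitters' processing notes name Bowtie2, RSEM 1.2.31, DESeq2 and the mm10 build. Libraries were stranded total RNA with 75 base paired reads, per the labels. The deposited estimated counts were rounded to whole numbers before testing. The deposited FPKM values are scaled by the authors for effective length and depth. For annotation, strand setting and filters nothing is stated (not given in the sources used here). Symbols came from GENCODE M21 (37570 of 38887 identifiers matched), and 2 empty lines were dropped.

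Counts were tested with edgeR 4.0.16 (R 4.3.3): TMM scaling, filterByExpr with a minimum count of 10, a quasi-likelihood fit with group as the only term, two-sided, Benjamini-Hochberg adjustment over 14346 genes. Values per library are TMM-scaled CPM, and group values are means ± SD. Ratios used log2 CPM with a prior count of 2. DESeq2 1.42.0 and limma 3.58.1 were alternatives. On simulated counts (14228 genes) the edgeR script recovered 64% of 50 genes raised 1.5-fold and 94% of 50 raised 2-fold. There were 6 false calls among the other genes. Folds as small as those of the members, 0.713 (Cdkn1c) to 1.23 (Cdk6), were not simulated, so recovery at that size is not known. At 34127674 or more counts per library, spread between libraries sets the precision, except for Cdkn1c. Same-group libraries differed beyond sampling noise (chi-square per degree of freedom of at least 11.0).

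The members and lists were chosen with earlier results of these data known. Named genes were all 10 members, up to 4 genes a pathway list with the smallest p among those that passed, and, for the 3 members with the smallest p, the 3 genes with the nearest profile. The 10 marker lists and 6 pathway lists had no test of their own. Cdk3, Skp1, Azu1 and Ahsp had no match.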

Additional observations from a re-analysis of the deposited data

Results flagged for a closer look

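In 28 groups of 5 libraries (10 genes in CPM and 4 log2 ratios, in each group), 4 had 1 library whose gap to its nearest neighbour took up more than 0.71 of the group's range, a limit that chance passes in about 1 of 20 groups. CK2i 2 held 178.7 CPM of Ccnd2, where the next CK2i library held 142 CPM. Vehicle 5 held 209.8 CPM of Cdk6, below the next at 233 CPM. CK2i 1 held 47.0 CPM of Cdkn1b, above the next at 43.9 CPM. Vehicle 1 held 24.5 CPM of Cdkn2c, below the next at 31.05 CPM.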

How the results depend on the processing

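The number of genes passing over all genes, 1892, was 1842 with RLE scaling, 1370 with no filter on low counts, 1197 with limma on log2(FPKM + 1), 3176 with DESeq2, 1139 with the replicate number as a block and 175 with CK2i 1, 3 and 4 only, and leaving out 1 library gave 446 (without CK2i 5) to 3198 (without CK2i 3), with 458 to 758 without vehicle 1, 3, 4 or 5 or CK2i 2. No member passed with limma, RLE scaling, no filter, the replicate block or CK2i 1, 3 and 4 only. With DESeq2, 2 of 10 members passed (Cdk2 and Cdk6, adjusted p = 0.0283 and 0.0298), beside 3176 of 14352 genes tested. Leaving out 1 library gave 0 to 2 members. The 2 were Cdk6 and Cdkn1c without CK2i 3, where 3198 of 14459 genes passed. The ratio of Cdk6 to Cdk4 differed by 0.13 with CK2i 1, 3 and 4 only, by 0.31 with the replicate block and by 0.20 to 0.37 without 1 library. The ratio of Cdkn2c to Cdkn1b differed by 0.24, 0.34 and 0.27 to 0.40, in the same order. Neither ratio passed under the first or the second of these. The exact sign-flip permutation test of the block cannot go below p = 0.0625. With CK2i 1, 3 and 4 only there are fewer splits, so the smallest possible p is higher there than with all 10 libraries. The log2 difference of Ccnd2 was -0.015 to 0.12 without 1 library (-0.015 without CK2i 2) and -0.037 with CK2i 1, 3 and 4 only, that of Cdk4 was 0.0027 with CK2i 1, 3 and 4 only, and that of Rb1 was 0.0035 with limma. The cause of these changes and of the lost ratio calls was not tested. Same-numbered libraries deviated together with correlations from -0.16 to 0.23, and own numbers correlated best in 1 of 5 pairs, so the numbers were not taken as pairs. With the block, 9 calls among the other genes named were lost and that of Mastl gained. With limma 9 were lost, among them Mybl2 (limma adjusted p = 0.0534), and with no filter 8. RLE scaling lost that of Cdkn2d (edgeR adjusted p = 0.0529) and gained that of Mastl. DESeq2 gained those of Hip1r, Mastl and Cenpe. The results of the leave-one-out fits were not looked up for Kit, Mki67 and Mycn. The identity of the member proteins was not analysed here. Depth limits the values of Cdkn1c (9 to 25 counts), and FPKM differences depend on the assigned transcript lengths.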

Other observations

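For the 3 members with the smallest p, the genes with the most similar profile were sought among 10869 named genes with a mean of at least 1 FPKM, by the root mean square difference of log2 CPM centred over the 10 libraries. The profile of Cdk2 was nearest to those of Tbc1d10b (0.030), Hip1r (0.030) and Morc3 (0.032), where the profile's own spread around its mean was 0.079, and of these Tbc1d10b passed (log2 0.12, edgeR adjusted p = 0.0420). That of Cdk6 (own spread 0.22) was nearest to those of Appl1 (0.053), Med13l (0.054) and Trrap (0.055), of which Med13l and Trrap passed the test, at log2 0.34 and 0.32 (edgeR adjusted p = 0.0425 and 0.0478). That of Cdkn2c (own spread 0.18) was nearest to those of Cep162 (0.063), Mastl (0.067), a kinase of mitotic entry, and Cenpe (0.068), a motor protein of the centromere. Cep162, Mastl and Cenpe were at log2 0.24, 0.24 and 0.26 and did not pass (edgeR adjusted p = 0.0877, 0.0515 and 0.0635). Genes near each member were picked by closeness over the same libraries, so group differences like the member's follow from the choice. Whether such a gene passed is therefore no support for a difference of the member.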
